A study of Mus musculus with 12 samples.

Results

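Of the 24343 genes with a name of their own in the expression tables, 64 were higher in HT22 cells after Ncoa4 siRNA both at normal iron and under iron chelation. They were chosen on the values described here. A member had a mean of at least 2 FPKM, a fragment count divided by transcript length and by library size, in siNCOA4 cells, every siNCOA4 library above every siControl library, every siNCOA4+DFO library above every siControl+DFO library, and a ratio of group means of at least 1.5 in both pairs. Names starting with Hist, Snor or Mir were left out. The siNCOA4 against siControl values of the members, with or without DFO, are therefore a description and carry no test.

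HT22 is an immortalized mouse hippocampal cell line, and total RNA of 12 cultures was sequenced, 3 biological replicates in each of 4 groups. siControl cells received a negative control siRNA and siNCOA4 cells an siRNA against Ncoa4, both at normal iron. siControl+DFO and siNCOA4+DFO cells received the same siRNAs and the iron chelator deferoxamine (DFO) at 100 µM for 24 h. All siNCOA4 libraries received the same Ncoa4 siRNA, so that loss of NCOA4 and other effects of that siRNA cannot be told apart in these data.

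NCOA4 is the cargo receptor that carries ferritin, the protein cage that stores iron, to the lysosome, where ferritin is degraded and its iron becomes available to the cell. This selective autophagy is called ferritinophagy. DFO binds iron and lowers the amount that cells can use, which stabilizes iron regulatory proteins and hypoxia-inducible factors. GALNT7, the member that marks the group, is a Golgi enzyme of mucin-type O-glycosylation that adds N-acetylgalactosamine to peptides already carrying this sugar.

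Ncoa4 itself was at 6.46, 6.19 and 6.02 FPKM in siControl and at 0.770, 0.952 and 0.891 in siNCOA4. With DFO it was at 8.70, 8.31 and 7.52 in siControl and at 0.850, 1.29 and 1.57 in siNCOA4 cells, so that no library went against its label. FPKM summed to between 565558 and 737313 per library, and relative depth, estimated from the smallest steps between low values with siControl replicate 1 set to 1.00, lay between 0.927 and 1.41. The shallowest library, siNCOA4+DFO replicate 3, stood apart, with correlations across genes of 0.926 to 0.934 with its own group against 0.947 or more between replicates of the other groups. Where the call of a named gene in siNCOA4+DFO cells was lost, or a count moved by over 1.5 times, without this library, the value without it is given. Of 9 neuronal markers, 1 passed the filter on low values, namely Tubb3 with group means of 5.34 to 12.5 FPKM, and Map2, Rbfox3, Snap25 and Grin1 had a mean of at most 0.0596 FPKM in each group. Of 7 fibroblast markers, 6 passed, and their summed FPKM was 1579 to 1883 in siControl, 944 to 1187 in siNCOA4, 404 to 537 in siControl+DFO and 473 to 616 in siNCOA4+DFO. Of 5 astrocyte markers 2 passed, and they went opposite ways with DFO. Slc1a3 had a mean of 42.1 FPKM in siControl and 3.59 in siControl+DFO, and Aldh1l1 one of 0.324 and 0.678.

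The upstream sequences of 4 members are shown as examples of the promoters on which the motif counts given further on rest. They are the marker gene, an interferon-inducible GTPase and the members Igf2r and Ogn, which fell with DFO. Each is the RefSeq sequence of 250 bases before the gene start (GRCm38.p6), 5′ to 3′ on the strand of the gene, with capitals for the motifs searched on both strands.
Galnt7, chr8:57653056-57653305, minus strand: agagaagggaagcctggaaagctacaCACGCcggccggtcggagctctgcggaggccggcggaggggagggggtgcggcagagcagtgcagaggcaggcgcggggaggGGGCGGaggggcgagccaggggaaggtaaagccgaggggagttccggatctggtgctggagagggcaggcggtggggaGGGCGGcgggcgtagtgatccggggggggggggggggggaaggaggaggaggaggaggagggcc
Igtp, chr11:58199306-58199555, plus strand: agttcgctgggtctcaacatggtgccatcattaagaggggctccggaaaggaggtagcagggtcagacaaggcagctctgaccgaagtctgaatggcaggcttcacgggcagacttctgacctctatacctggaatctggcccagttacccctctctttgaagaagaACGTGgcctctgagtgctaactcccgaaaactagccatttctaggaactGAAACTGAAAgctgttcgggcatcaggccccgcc
Igf2r, chr17:12769707-12769956, minus strand: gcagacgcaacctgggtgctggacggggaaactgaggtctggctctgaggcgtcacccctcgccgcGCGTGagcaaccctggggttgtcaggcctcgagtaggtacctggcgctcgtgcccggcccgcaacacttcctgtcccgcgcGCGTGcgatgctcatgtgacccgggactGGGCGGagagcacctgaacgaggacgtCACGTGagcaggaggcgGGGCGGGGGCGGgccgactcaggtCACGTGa
Ogn, chr13:49607765-49608014, plus strand: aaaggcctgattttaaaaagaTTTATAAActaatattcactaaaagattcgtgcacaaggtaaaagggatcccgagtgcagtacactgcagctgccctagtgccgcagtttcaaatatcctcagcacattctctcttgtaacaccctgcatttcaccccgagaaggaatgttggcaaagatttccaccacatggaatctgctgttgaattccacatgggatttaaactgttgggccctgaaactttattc
In Galnt7 the capitals mark 2 copies of GGGCGG, the GC box, and 1 copy of GCGTG, a core of the hypoxia response element, on the other strand. In Igtp they mark the core of the interferon-stimulated response element and, before it, ACGTG, the other core of the hypoxia response element. In Igf2r GCGTG and the GC box recur beside copies of the E-box CACGTG. Every ACGTG match of Igf2r lies within these E-boxes, which hold it on both strands. In Ogn they mark an overlapping pair of TATAAA matches.

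The rule without DFO was met by 337 of the 9932 genes past the FPKM floor (3.39%), and the rule with DFO by 397 (4%). The 64 members were 19% of the first set and 16.1% of the second. Without siNCOA4+DFO replicate 3, 73 genes met the whole rule, 54 of them members. Their mean FPKM in siNCOA4 cells ranged from 2.1 to 63.5 with a median of 5.35, against a median of 3.20 in siControl. With DFO the medians were 5.64 in siNCOA4 and 2.63 in siControl cells. The ratio of means had a median of 1.73 without DFO (1.5 to 3.65) and of 1.87 with DFO (1.5 to 7.08). It was at least 2 in 10 members without DFO, in 24 with DFO (20 without siNCOA4+DFO replicate 3) and in 7 in both. The median with DFO was 1.77 (1.24 to 5.53) without siNCOA4+DFO replicate 3, and 2 members, Bmf and Ogn, moved by over 1.5 times. The larger of both ratios was the one with DFO in 44 members. Neither the share over the other genes nor the count without that library was computed, so this count only describes the list. The median coefficient of variation within a group was 13.2 to 16.0% for members and 8.74 to 11.2% for the other genes past the floor.

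**Figure D1:**
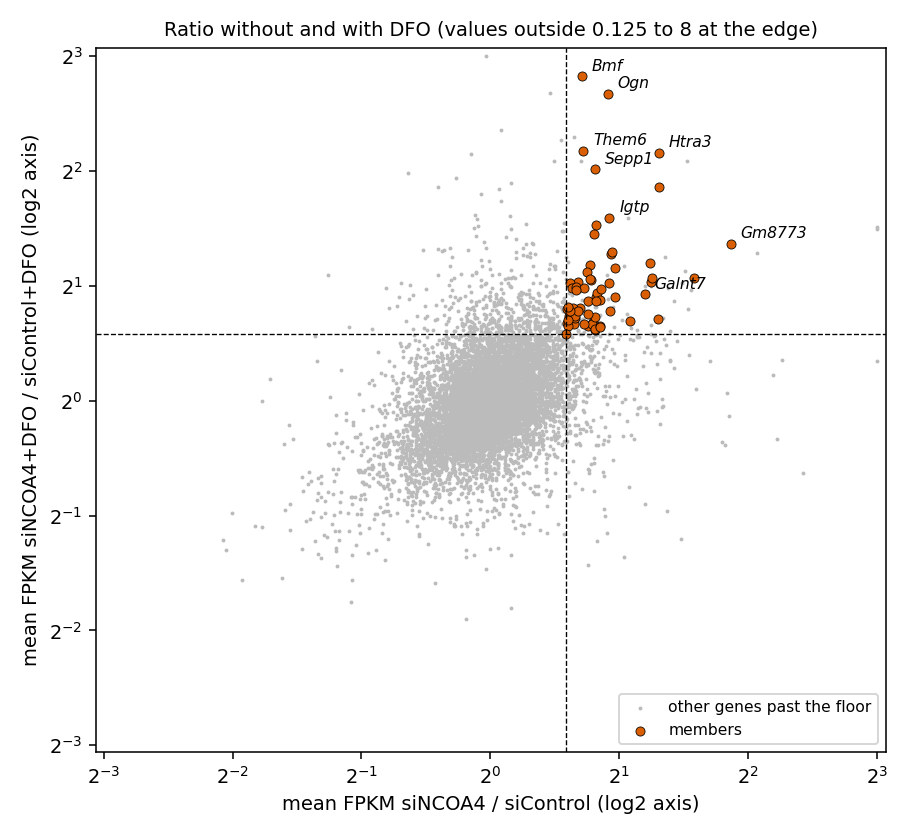
Ratio of mean FPKM of siNCOA4 to siControl cells without DFO (x axis) and with DFO (y axis), both on log2 axes, for genes past the floor. Orange points are the 64 members, grey points other genes, and dashed lines the ratio of 1.5. The members fill the upper right corner up to 3.65 on x and 7.08 on y. The grey points there are genes whose libraries overlapped between groups, and genes with left-out names are not plotted.

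Just inside the ratio threshold were Ppapdc2, a lipid phosphatase, with a smaller ratio of 1.502, Mboat1 with 1.505 and Ccdc122 with 1.512. Just outside were Hebp2 with 1.498, Pcdhb16 with 1.496 and Tceal1 with 1.495. These values lie closer together than the spread between replicates, and the border of the group is set by the threshold.

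The endoplasmic reticulum, Golgi and endosome account for 5 members, Galnt7, Tmx3, Tmem33, Igf2r and Slc10a7. Blocks of members by known role, here and in the following, were formed after the values were seen. Galnt7 was at 9.35, 8.94 and 10.8 FPKM in siControl and at 22.5, 23.8 and 20.6 in siNCOA4. With DFO it was at 9.03, 9.11 and 8.80 in siControl and at 14.7, 16.4 and 20.1 in siNCOA4 cells. The siNCOA4 libraries were thus the highest, the siNCOA4+DFO libraries lay between them and the controls, and the control groups with and without DFO overlapped. The ratios were 2.30 without and 1.90 with DFO. Galnt7 lies at chr8:57523825-57653055 on the minus strand, and an exon of AW046200 overlaps it on the opposite strand.

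Tmx3, a thiol oxidoreductase of the endoplasmic reticulum membrane, went from 14.0 ± 1.14 to 23.3 ± 0.596 FPKM without DFO (mean ± SD, n = 3) and from 16.6 ± 1.72 to 32.8 ± 7.38 with DFO. Its siNCOA4+DFO libraries were at 28.6, 28.4 and 41.3, and the highest of these was replicate 3, the library that stands apart. Igf2r, the receptor that sorts mannose 6-phosphate tagged enzymes to lysosomes, was at 7.85, 7.03 and 8.61 FPKM in siControl and 15.4, 13.1 and 14.2 in siNCOA4. With DFO it was at 1.96, 2.47 and 2.09 in siControl and 4.35, 3.15 and 5.24 in siNCOA4 cells. All 4 groups were apart from each other, and the siNCOA4+DFO libraries remained below those of siControl. Tmem33, an endoplasmic reticulum membrane protein, and Slc10a7, a member of a bile acid transporter family, completed the block, whose ratios were 1.54 to 2.30 without and 1.72 to 1.98 with DFO.

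The secreted and matrix proteins were Ogn, Sepp1, Htra3, Inha and Lpl. Ogn encodes osteoglycin, a small leucine-rich proteoglycan of the extracellular matrix. It was at 17.6, 17.3 and 21.5 FPKM in siControl, 32.0, 42.4 and 31.5 in siNCOA4, 1.16, 0.985 and 2.67 in siControl+DFO and 5.66, 7.27 and 17.7 in siNCOA4+DFO. The ratio was 1.88 without DFO and 6.36 with DFO, and replicate 3 held the highest value of the siNCOA4+DFO group. Without that library the ratio with DFO was 4.03. Htra3, a secreted serine protease, was at 1.45, 1.17 and 1.45 FPKM in siControl and 4.76, 2.63 and 2.70 in siNCOA4. In siControl+DFO it was listed at 0 in 1 library and at 0.228 and 0.241 in the others, against 0.566, 0.715 and 0.812 in siNCOA4+DFO.

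Sepp1 (Selenop), the selenium carrier selenoprotein P, falls outside the rule for named genes and was chosen after its values were seen. It was at 3.29, 3.48 and 5.34 FPKM in siControl, 7.69, 6.72 and 6.90 in siNCOA4, 1.64, 2.39 and 2.08 in siControl+DFO and 8.59, 6.5 and 9.58 in siNCOA4+DFO. The siNCOA4 libraries with and without DFO overlapped, whereas the siControl+DFO libraries were all below those of siControl. Sepp1 overlaps an exon of Ccdc152 on the opposite strand. Inha encodes the inhibin alpha subunit and Lpl lipoprotein lipase.

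Interferon and innate immunity accounted for 9 members, with ratios of 1.58 to 2.37 without and 1.67 to 3.01 with DFO. Igtp, an interferon-inducible GTPase that acts on pathogen vacuoles, was at 2.61, 2.22 and 2.53 FPKM in siControl and 4.93, 4.82 and 4.20 in siNCOA4. With DFO it was at 2.14, 2.09 and 2.22 in siControl and 7.68, 6.09 and 5.64 in siNCOA4 cells. The siNCOA4+DFO libraries were the highest of all, and the control libraries with and without DFO lay between 2.09 and 2.61. Of the distinct 75-base windows of its annotated transcripts, 7.80% also occur in Irgm2, whose exons overlap on the same strand. The values of Igtp are uncertain to that extent.

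Irf9, the DNA-binding subunit of the interferon-stimulated factor ISGF3, went from 2.62 ± 1.10 to 4.75 ± 0.656 FPKM without DFO and from 3.09 ± 0.0316 to 5.68 ± 1.31 with DFO. Its siNCOA4 values of 4, 5.03 and 5.21 lay close to the highest siControl value of 3.87. Ifi27, an interferon-inducible protein, was at 8.64, 16.4 and 10.4 FPKM in siControl, 24.8, 25.2 and 33.7 in siNCOA4, 20.9, 18.8 and 23.7 in siControl+DFO and 45.3, 44.6 and 40.0 in siNCOA4+DFO. Xaf1, an interferon-inducible factor that binds the apoptosis inhibitor XIAP, was at 3.91, 1.59 and 1.82 in siControl, 4.30, 4.11 and 4.54 in siNCOA4, 5.71, 6.54 and 3.67 in siControl+DFO and 11.3, 9.53 and 8.29 in siNCOA4+DFO. For both genes the group with siRNA and DFO held the highest 3 libraries.

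Alox5ap, which is needed for leukotriene synthesis, was at 5.41 ± 1.20 FPKM in siControl, 10.4 ± 1.17 in siNCOA4, 1.86 ± 0.307 in siControl+DFO and 4.50 ± 1.59 in siNCOA4+DFO. Unlike the 4 genes above, it fell with DFO in siControl cells (log2 change -1.48, adjusted p = 3.35e-04 by limma, described below). The change in siNCOA4 cells was -1.24 (adjusted p = 0.00167). The block also held Sp100, a nuclear body protein, the phosphatase Ptpn6, and Naip2 and Naip5, sensors of bacterial proteins. Naip5 had ratios of 1.93 and 2.46, but 23.8% of its windows are shared with other Naip genes, and 10.7% of those of Naip2. The 2 genes are neighbours, 9.61 kb apart.

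Mitochondria, autophagy and cell death accounted for Fundc1, Bmf, Ccdc90b, Trp53inp2 and Ppm1k. Fundc1, a receptor of mitophagy in the outer mitochondrial membrane, was at 5.79, 6.92 and 7.59 FPKM in siControl, 10.1, 15.6 and 14.0 in siNCOA4, 4.62, 3.49 and 3.54 in siControl+DFO and 7.67, 7.40 and 11 in siNCOA4+DFO. Bmf, a BH3-only protein that promotes apoptosis, was at 2.77, 2.21 and 2.67 in siControl and 4.01, 4.33 and 4.18 in siNCOA4. In siControl+DFO it was at 0.137 and 0.117 and listed at 0 in the third library, and in siNCOA4+DFO it was at 0.197, 0.424 and 1.18. The ratio of 7.08 with DFO thus rests on values near 0, and it was 3.67 without replicate 3 of siNCOA4+DFO. Ccdc90b, a mitochondrial coiled-coil protein, went from 12.6 ± 1.96 to 19.8 ± 0.829 FPKM and, with DFO, from 7.90 ± 2.13 to 12.6 ± 0.299. Trp53inp2 promotes autophagosome formation, and Ppm1k is a mitochondrial phosphatase of branched-chain amino acid breakdown.

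Proteins of cilia and centrioles were Cep19, Intu, Tmem67 and 9230110C19Rik (Cfap300), with ratios of 1.56 to 1.69 without and 1.57 to 2.05 with DFO. Cep19, a centriolar protein, was the most abundant of them, at 18.1 ± 1.79 FPKM in siControl, 28.2 ± 1.86 in siNCOA4, 8.66 ± 0.522 in siControl+DFO and 15.1 ± 2.84 in siNCOA4+DFO. The cytoskeletal members were Mprip, Dynlt3 and Camsap3, a protein of microtubule minus ends. Mprip, which tethers myosin phosphatase to actin, had the highest mean FPKM of the members in each group, at 39.1, 36.0 and 34.9 in siControl, 67.3, 57.0 and 66.3 in siNCOA4, 37.5, 39.9 and 36.6 in siControl+DFO and 59.9, 63.9 and 57.9 in siNCOA4+DFO. Dynlt3, a dynein light chain, was at 35.6 ± 2.89, 54.1 ± 5.02, 31.5 ± 5.48 and 49.3 ± 5.77 in the same order of groups. For both genes the libraries with and without DFO overlapped within each siRNA.

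Lipid, aldehyde and pterin metabolism accounted for 9 members, Mboat1, Them6, Hacl1, Akr1c13, Aldh3b1, Pts, Plcb4, Nr1h4 and Ppapdc2. Plcb4, a phospholipase C that acts downstream of G proteins, was at 1.11, 1.62 and 1.02 FPKM in siControl, 3.52, 2.56 and 2.74 in siNCOA4, 0.521, 0.443 and 0.626 in siControl+DFO and 1.16, 0.997 and 1.49 in siNCOA4+DFO, with ratios of 2.36 and 2.29. Akr1c13, an aldo-keto reductase, went from 14.9 ± 0.780 to 23.1 ± 3.53 FPKM and, with DFO, from 10.6 ± 1.26 to 17.1 ± 2.63, and 14.3% of its windows are shared with Akr1c12. Aldh3b1, an aldehyde dehydrogenase, had ratios of 1.74 and 1.61, and Them6 had ratios of 1.65 and 4.52, the latter against siControl+DFO libraries at 0.230, 0.195 and 0.207 FPKM. Hacl1 shared 25.7% of its windows with other annotated transcripts. Nr1h4 encodes the bile acid receptor FXR, and Pts an enzyme of tetrahydrobiopterin synthesis.

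The nuclear and RNA-related members were Chd1l, Nova1, Zfhx4, Zfp820, Nxt2, Eif5a2 and Fbxo36, with ratios of 1.59 to 1.81 without and 1.56 to 2.88 with DFO. Chd1l is a chromatin remodeller, Nova1 a splicing factor, Nxt2 a factor of RNA export and Eif5a2 a translation factor. The remaining 17 were Tmem47, Tmem62, Tmem106a, Tmem106c, Tmem170, Tcaf2, Rhd, Phtf2, Lmbr1, Bex2, Ccdc122, Pacrgl, BC037034, BC052688, 3830403N18Rik, Gm8773 and Trpc5os. Among these, Gm8773 had the largest ratio without DFO of all members, 3.65, at 0.582, 0.463 and 1.25 FPKM in siControl and 2.45, 3.22 and 2.70 in siNCOA4, and 2.57 with DFO. Bex2 had ratios of 2.48 and 3.64, with siControl libraries from 0.741 to 2.59 and 14.5% of its windows shared with Bex1 and Bex3. BC052688, annotated as a transcribed pseudogene, had ratios of 3.00 and 2.1 and siNCOA4 libraries at 2.88, 4.03 and 6.29. Trpc5os had ratios of 2.39 and 2.1. 3830403N18Rik was abundant, at 24.3 ± 4.02 FPKM in siControl, 51.5 ± 7.99 in siNCOA4, 36.6 ± 4.47 in siControl+DFO and 59.5 ± 6.5 in siNCOA4+DFO.

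**Figure D2:**
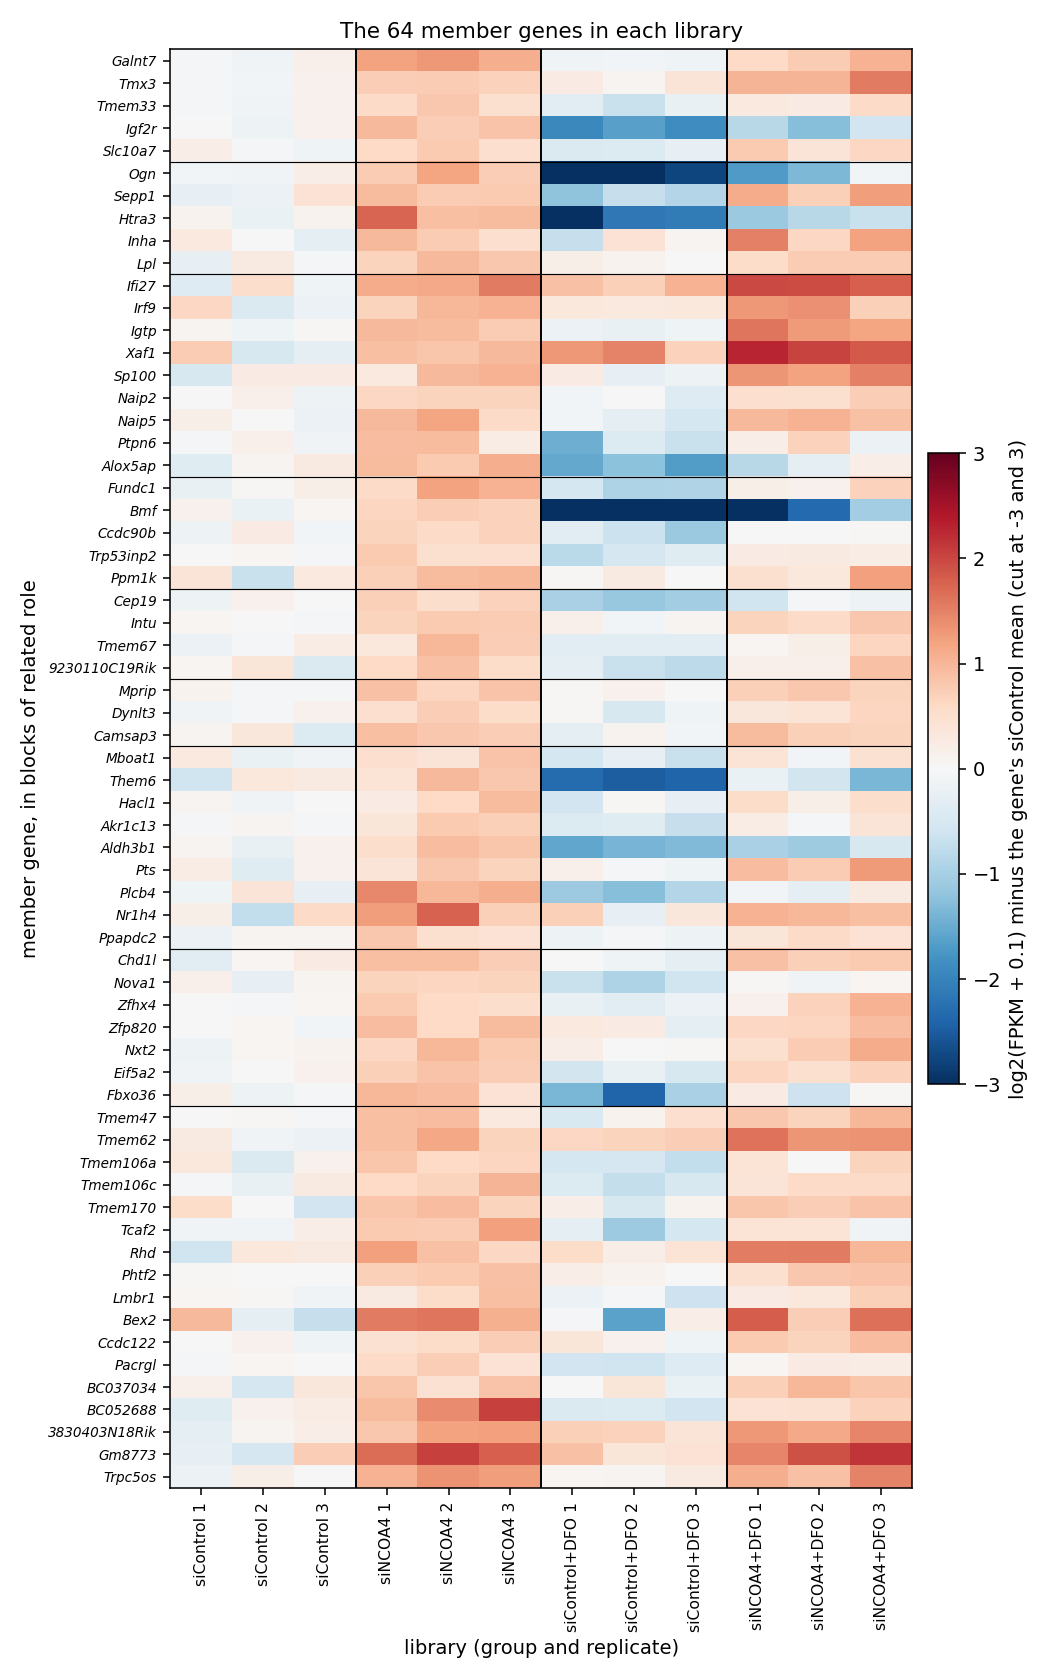
The 64 members (rows, in blocks of related role) in the 12 libraries (columns), as log2(FPKM + 0.1) minus the mean of the gene in siControl, with red above and blue below it. All siNCOA4 columns are red by the rule, while the siControl+DFO columns hold dark blue rows such as Ogn, Htra3, Bmf and Them6 and red rows such as Xaf1 and Ifi27.

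The change with DFO was not used by the rule, although the same libraries and the floor on FPKM enter it. It was tested with limma on log2(FPKM + 0.1) across the 11924 genes with at least 0.5 FPKM in at least 3 libraries, with Benjamini-Hochberg adjustment over all of them. All 64 members passed this filter, and all 64 did so in the 6 siControl libraries alone. In siControl cells 24 members (37.5%) fell with DFO and 4 (6.25%) rose at an adjusted p below 0.05, and 36 did not pass. Of all genes tested 25.7% fell and 27.7% rose, and of those past the FPKM floor 28.5% and 28.1%. With a fold above 2 in addition, 10 members fell and 1 rose, against 7.76% and 11.1% of all genes tested. The median log2 change was -0.26 for members and -0.01 for all genes tested.

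In siNCOA4 cells 17 members (26.6%) fell and 5 (7.81%) rose with DFO, against 19.6% and 23.1% of all genes tested and 22.4% and 23.4% of those past the floor. With a fold above 2, 8 fell and 1 rose, against 3.83% and 7.59%. The median log2 change was -0.13 and went to -0.22 without siNCOA4+DFO replicate 3, when 9 fell. By the adjusted p alone 16 then fell, and Tcaf2 was the member lost (-0.69, adjusted p = 0.0397 by limma, and -0.52, adjusted p = 0.132, without that library). It falls outside the rule for named genes and was chosen after its values were seen. In both siRNA groups 15 members fell and 3 rose, and 32 passed in neither. The matching shares over all genes tested were not computed, so these joint counts only describe the list.

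The balance between falls and rises depends on the floor of the rule, which was set on libraries without DFO. When it was set on the siNCOA4+DFO mean instead, an alternative added after the data were seen, 68 genes met the rule, 57 of them members. With a fold above 2, 5 of these then fell and 8 rose with DFO in siControl cells, and 3 fell and 10 rose in siNCOA4 cells. The direction of the DFO change is therefore reported gene by gene, not as a property of the group.

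**Figure D3:**
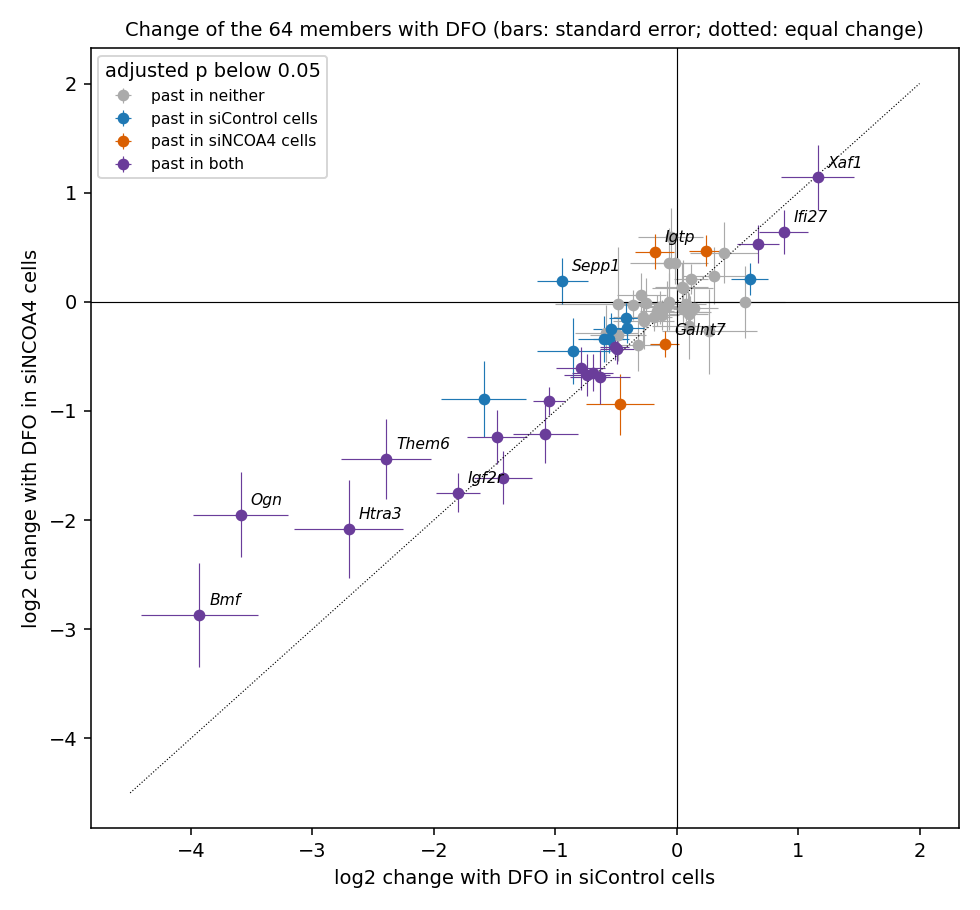
Log2 change with DFO in siControl cells (x axis) and in siNCOA4 cells (y axis) of the 64 members, with standard errors as bars and colours for the comparison in which the adjusted p was below 0.05. Most points lie near 0 or near the dotted line of equal change, from Bmf at -3.93 and -2.87 to Xaf1 at 1.16 and 1.14, and Sepp1 lies at -0.94 and 0.19.

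The largest falls in siControl cells were those of Bmf (log2 change -3.93, standard error 0.48, adjusted p = 2.72e-05 by limma), Ogn (-3.59, 0.39, 1.03e-05), Htra3 (-2.70, 0.45, 3.12e-04), Them6 (-2.39, 0.37, 1.51e-04) and Igf2r (-1.80, 0.18, 4.42e-06). In siNCOA4 cells the same comparison gave Bmf -2.87, Htra3 -2.08, Ogn -1.95, Igf2r -1.75 and Aldh3b1 -1.61, with limma adjusted p-values between 1.12e-05 and 0.00279. Without siNCOA4+DFO replicate 3 these changes were -3.44 for Bmf, -2.43 for Ogn, -2.18 for Htra3, -1.91 for Igf2r and -1.79 for Aldh3b1. Even so, Ogn and Bmf remained below siControl without DFO in the siNCOA4+DFO group mean, as did Igf2r. The fibroblast markers fell alongside: 6 of 6 tested in siControl and 5 of 6 in siNCOA4 cells had an adjusted p below 0.05. In siNCOA4 against siControl, where Ogn and Htra3 were higher by the rule, 0 of these markers were higher and 2 lower (median log2 difference -0.57). With DFO, 1 was higher and 0 lower (0.32). The part of these markers in the falls of Ogn and Htra3 was not tested. In bulk RNA, fewer cells of a type and less RNA per cell cannot be told apart.

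Rises with DFO in siControl cells were found for Xaf1 (log2 change 1.16, standard error 0.30, adjusted p = 0.00585 by limma), Ifi27 (0.88, 0.20, 0.00261), Tmem62 (0.67, 0.17, 0.00571) and 3830403N18Rik (0.60, 0.15, 0.00502). Xaf1, Ifi27 and Tmem62 also rose in siNCOA4 cells, by 1.14, 0.64 and 0.53, where Tmx3 (0.47, adjusted p = 0.0148 by limma) and Igtp (0.46, adjusted p = 0.0344) rose too. The change of Tmx3 was 0.29 without siNCOA4+DFO replicate 3 (adjusted p = 0.0386 by limma), and those of Xaf1, Ifi27, Tmem62 and Igtp were 1.25, 0.70, 0.57 and 0.55, still past the threshold. The Igtp call was lost when any 1 of 5 libraries of the siNCOA4 groups other than siNCOA4+DFO replicate 3 was left out, with adjusted p-values from 0.0548 to 0.148 (limma). The same held for Tmem62 in siNCOA4 cells without siNCOA4 replicate 1 or 3 or siNCOA4+DFO replicate 1 (0.0629 to 0.110), and for Ifi27 without siNCOA4 replicate 1 or 2 or siNCOA4+DFO replicate 1 or 2 (0.0561 to 0.0721). Galnt7 fell in siNCOA4 cells with DFO (-0.39, standard error 0.12, adjusted p = 0.0194 by limma) and had a log2 change of -0.10 in siControl cells (adjusted p = 0.494).

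**Figure D4:**
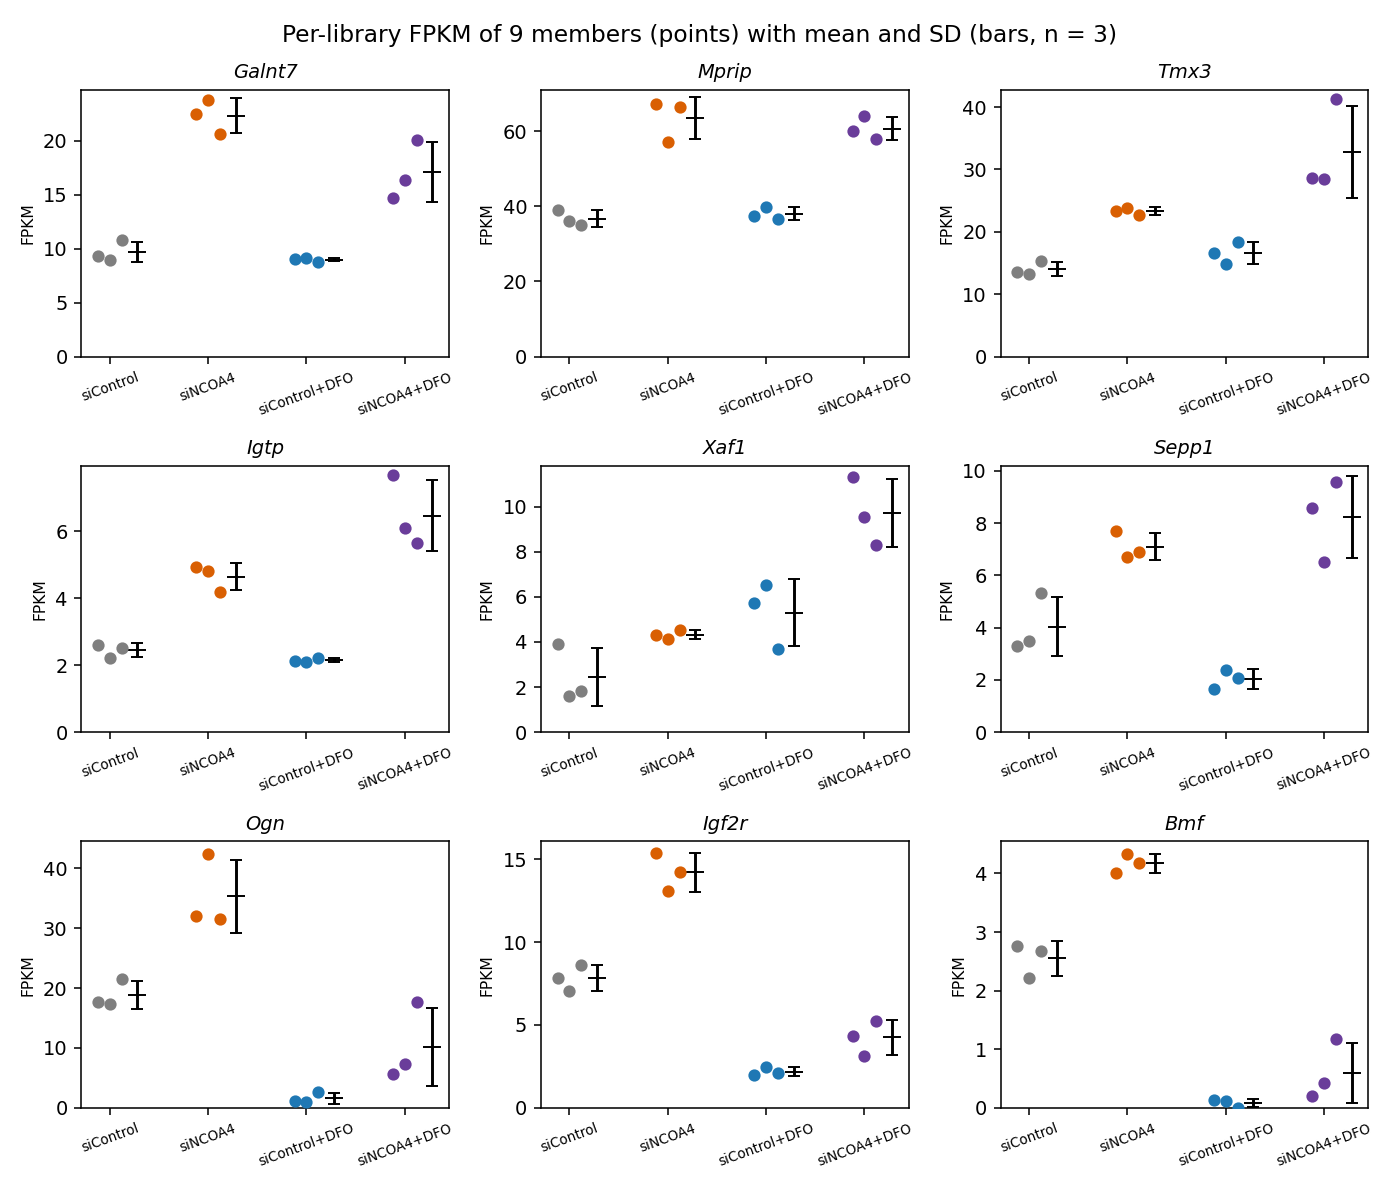
FPKM of 9 members in each library, 1 panel per gene with its own linear axis from 0, with points for the 3 libraries of each group and the mean and SD beside them. Galnt7 and Mprip are near their siControl level in siControl+DFO cells, Xaf1 is highest in siNCOA4+DFO, and Ogn, Igf2r and Bmf are low in both DFO groups.

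Whether the siNCOA4 difference itself changed with DFO was tested by the interaction term, which was past an adjusted p of 0.05 in 0 members and in 250 of 11924 genes (2.1%) by limma. At an unadjusted p below 0.05 it was past in 3 members (4.69%), Igtp, Ogn and Sepp1, against 18.2% of all genes tested. The rule limits this term, since both differences had to be at least 1.5-fold, so the low count is no evidence that the members respond alike. The lowest adjusted p was that of Sepp1, 0.0749, for a log2 difference that was larger by 1.13 (standard error 0.30) with DFO. Sepp1 fell with DFO in siControl cells (-0.94, adjusted p = 0.00279 by limma) and changed by 0.19 in siNCOA4 cells (adjusted p = 0.498). Ogn gave 1.65 (standard error 0.56, adjusted p = 0.140) and Igtp 0.64 (standard error 0.23, adjusted p = 0.156) in the interaction. Leaving out siNCOA4+DFO replicate 3, the interaction was again past the threshold in 0 members, 5 were past an unadjusted p of 0.05, and Sepp1 gave 1.01 (adjusted p = 0.136 by limma).

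The levels under siRNA and DFO combined were also set beside the untreated controls. The rule favours high values here, since it required siNCOA4+DFO to be above siControl+DFO, and the counts are a description. The mean of siNCOA4+DFO was above that of siControl in 52 of 64 members, against 48.0% of genes past the floor. All 3 libraries were above all siControl libraries in 42 members and below them all in 4, against 28.1% and 29.4%. Without replicate 3 the last 2 counts were 44 and 5. The siControl+DFO libraries lay wholly below siControl in 28 members and wholly above in 3, against 32.5% and 31.2%, a balance that depends on the floor as given above. The median over members of the log2 level relative to siControl was 0.75 to 0.83 in the siNCOA4 libraries, -0.26 to -0.25 with DFO in siControl cells and 0.50 to 0.72 with both, the highest of the latter in siNCOA4+DFO replicate 3.

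The pathways to which members belong were examined through their gene lists, members included, in the fit over all genes tested. Without DFO, 4.52% of all genes tested were higher and 7.21% lower in siNCOA4 at an adjusted p below 0.05 (limma), with a median log2 difference of 0.00. With DFO these were 6.22% and 10.2%. Of 31 genes of O-GalNAc glycosylation 14 were tested. Besides Galnt7, C1galt1, which extends the first sugar to the core 1 structure, was higher without DFO (25.6 against 39.7 FPKM, log2 difference 0.63, adjusted p = 9.95e-04), and the sialyltransferase St6galnac4 was lower (-0.83, adjusted p = 0.0234). With DFO, Galnt2, an initiating enzyme, was higher (0.54, adjusted p = 0.00743) besides Galnt7, and without siNCOA4+DFO replicate 3 C1galt1c1, the chaperone of C1galt1, was so too. The list's median was 0.22 without and 0.30 with DFO. Galnt7 was chosen on these same comparisons, so its values here carry no test. Of the other 13 genes, 1 was higher and 1 lower without DFO, and 1 and 0 with DFO. Their medians were 0.21 and 0.25.

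Of 30 interferon response genes 27 were tested. Irf9 and Igtp are members chosen on the siNCOA4 comparisons, so the counts are given for the other 25. In siNCOA4 cells 10 of these were higher and 0 lower, with a median of 0.55. With DFO 8 were higher and 1 (Ifit1) lower, with a median of 0.33. Without siNCOA4+DFO replicate 3, 4 of the 27 were higher with DFO, the members Irf9 and Igtp among them, and 0 lower. On addition of DFO 18 of the 25 rose and 1 (Ifit2) fell in siControl cells, with a median of 1.85, and 19 rose and 0 fell in siNCOA4 cells, with a median of 1.77, against 27.7% and 23.1% of all genes tested that rose. Usp18, a feedback inhibitor of interferon signalling that was listed at 0 in siControl, was higher in both siNCOA4 comparisons, with means of 0.562 FPKM in siNCOA4 and 4.46 against 1.34 with DFO, the second of which was not past the threshold without siNCOA4+DFO replicate 3. Of 27 proteoglycan genes 15 were tested. Gpc1 was lower in siNCOA4 without DFO, and Ogn and Bgn were higher and Sdc4 lower with DFO, with medians of -0.12 and 0.23. Of these, Ogn was chosen on the same comparison, and without siNCOA4+DFO replicate 3 Bgn and Sdc4 were not past the threshold.

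Features not used by the rule were taken from the annotation. In RefSeq 63 members were matched, 3 by an older symbol, and 62 were protein coding. On the X chromosome lay 7 members (10.9%), namely 3830403N18Rik, Bex2, Dynlt3, Fundc1, Nxt2, Tmem47 and Trpc5os, against 3.25% of the other genes past the floor. The 382 X-linked genes tested had median log2 differences of 0.06 without and 0.10 with DFO. Names starting with Tmem, given to transmembrane proteins, made up 7 members (10.9%) against 1.19%. The median gene span was 23.1 kb for members and 23.6 kb for the others. An exon of another gene on the opposite strand overlaps 16 members, a count that was not made for the others. The libraries were stranded, but whether the counting used strand is not given in the sources used here.

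Promoter windows were found for 54 members, 64 windows in all, of 32851 for all genes. GGGCGG was present in 51.6% of the member windows, 32.7% of all windows and 60.4% of those of the other genes past the floor. GCGTG, marked in Galnt7 and Igf2r above, was present in 26.6%, 28.2% and 46.9%, and ACGTG in 14.1%, 16.6% and 22.7%. The interferon-stimulated response element core, marked in Igtp, was present in 4 member windows (6.25%), of Igtp, Fbxo36 and Sepp1, against 2.98% and 2.44%. The 4 windows come from 3 genes, since 2 overlapping windows of Sepp1 hold the same match. The other motifs were CCAAT (39.1%, 33.8% and 36.5%), TATAAA (7.81%, 12.4% and 5.96%), CACGTG (6.25%, 6.02% and 8.61%), TGACGTCA (3.12%, 1.55% and 2.76%) and TGANTCA (1.56%, 6.75% and 4.09%). CACGTG matches are counted under ACGTG as well. A match is a description of the letters and not of a bound site.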

How the data were processed

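For each of 12 libraries, made from total RNA with a stranded low-input kit, the authors deposited a table of FPKM for 24347 entries. The submitters' processing notes name Trimmomatic 0.33, FastQC, HISAT2 2.1.0, featureCounts, edgeR and mm10. The tool that computed FPKM is not given in the sources used here. FPKM alone does not show the counting error of a value, so this error was not modelled. Groups and replicate numbers came from the sample labels. The 4 entries that shared a name were left out. Members and gene lists were chosen with earlier results of these data known. Tests used limma 3.58.1 in R 4.3.3 on log2(FPKM + 0.1), which understates changes of low genes, in 1 model of all 4 groups with a mean-variance trend and a filter of 0.5 FPKM in 3 libraries. The limma script was tested on simulated data. Genes were named by a rule (the marker, highest levels, ratios and DFO changes, border cases and list members). Annotation came from RefSeq (GRCm38.p6) and GENCODE (GRCm38). With 3 against 3 libraries an exact test cannot go below p = 0.1, so none was used. Same-numbered libraries did not deviate together. Alternatives covered the pseudocount, the filter, scaling, the spread estimate, a replicate block and left-out libraries.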

Additional observations from a re-analysis of the deposited data

How the results depend on the processing

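The number of members was 64 and went to 205 with a ratio of 1.3, to 7 with a ratio of 2 and to 117 when libraries were allowed to overlap. It was 77 and 43 with a floor of 1 and 4 FPKM, 63 with median-of-ratios scaling, 56 with quantile normalization (47 of them members) and 64 to 83 when 1 library was left out, of which 54 to 64 were members. Without siNCOA4+DFO replicate 3 it was 73, of which 54 were members. Members with a fold above 2 on DFO in siControl cells were 1 higher and 10 lower, and 0 and 6 with a pseudocount of 1, which by construction shrinks the changes of low genes and took the median from -0.26 to -0.17. By the adjusted p alone they were 4 and 24, and in siNCOA4 cells 5 and 17. With the floor set on siNCOA4+DFO they were 8 and 5, with a median of -0.09, and in siNCOA4 cells 10 and 3, with a median of -0.05. Leaving out 1 library gave 0 to 1 higher and 9 to 11 lower in siControl cells, with medians from -0.28 to -0.21, and 1 higher and 7 to 9 lower in siNCOA4 cells, with medians from -0.22 to -0.10. The rise of Xaf1 was no longer above 2-fold without siControl+DFO replicate 2 (log2 change 0.99) or siControl replicate 2 (0.92); Ifi27 was above it in the latter. The interaction was past the threshold in 0 members under each alternative run, including every left-out library.

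The replicate numbers did not pair the libraries: deviations of same-numbered libraries correlated at -0.127 to 0.116, and 3 of 12 libraries correlated best with their own number. A fit with the replicate block gave the same counts, 1 higher and 10 lower in siControl cells, 1 and 8 in siNCOA4 cells and 0 for the interaction, with medians of -0.26 and -0.13. Of 418 values of single genes under the alternatives, 404 kept direction and call, 14 kept direction and lost the call, and 0 reversed. Those 14 concerned Igtp, Ifi27, Tmem62 and Htra3 in siNCOA4 cells, Htra3 with a pseudocount of 0.01 (adjusted p = 0.0860 by limma). Values of FPKM below about 1 rest on few fragments, which limits Bmf, Htra3 and Them6 under DFO, among others.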

Other observations

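The genes that met the rule at 1 iron condition alone were less marked in the other. The 273 that met it without DFO and not with DFO had a median ratio of 1.18 with DFO, and 198 of them were above 1. The 333 that met it with DFO and not without had a median ratio of 1.12 without DFO, and 238 of them were above 1. These sets were chosen on the same values, and no test was made of them.

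Several gene lists held no member, although Fundc1 and Trp53inp2, members with a role in autophagy, are not on the autophagy list used. Of 23 p53 targets tested, 9 were higher and 0 lower in siNCOA4 without DFO, Cdkn1a and Mdm2 among the former, whereas with DFO 1 (Ccng1) was higher and 8 were lower (limma, adjusted p below 0.05), with medians of 0.38 and -0.39. Without siNCOA4+DFO replicate 3 the latter counts were 1 and 5. The difference between these counts was not tested. Of 14 targets of hypoxia-inducible factors, 0 were higher and 6 lower without DFO, and 0 and 4 with DFO, with medians of -0.34 and -0.26. Without siNCOA4+DFO replicate 3 the counts with DFO were 0 and 3. Of 14 iron handling genes, 1 (Pcbp2) was lower without DFO and 4 were lower with DFO, Tfrc among them, at 240 against 328 FPKM, and 2 without siNCOA4+DFO replicate 3. Of 23 autophagy and lysosome genes, 0 were past the threshold without DFO and 5 were higher and 3 lower with it (4 and 2 without siNCOA4+DFO replicate 3). Of 23 genes of protein folding in the endoplasmic reticulum, 1 was higher and 2 lower without DFO, and 1 and 4 with it (0 and 3 without siNCOA4+DFO replicate 3).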
